A study of Mus musculus with 12 samples.

Results

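The lungs of newborn Sphk1-knockout mice kept in hyperoxia were compared with those of age-matched knockout pups kept in room air, which is 6 of the 12 arrays of the study (SK HO and SK RA, 3 mice each, 1 array per mouse). All 41345 transcripts of the array were members of the comparison, and 22180 genes could be named through a transcript that carries 1 symbol. SK stands for the knockout of sphingosine kinase 1, the enzyme that makes sphingosine-1-phosphate, a lipid that signals through receptors on the cell surface. Hyperoxia (HO) was 75% oxygen for 7 days from an age of 1 day, and room air (RA) pups were kept for the same time. RNA came from the superior lobe of the right lung, which had been perfused with buffer. The other 6 arrays, wild type in room air and in hyperoxia (WT RA and WT HO, 3 mice each), entered the fit for the spread of each transcript and stand beside the results where they differ. Both genotypes had a mixed background, since the knockout had been backcrossed to C57BL/6 for 2 generations, and litters held at most 6 pups whose dams alternated between the chambers. The knockout (Sphk1-/-) was of the whole animal, shared by all 6 SK lungs, and neither litter nor dam of a pup is given. Replicates are separate mice of a group, and their values are given below in the order 1, 2 and 3.

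In the days after birth the saccular lung of the mouse is divided into alveoli. Myofibroblasts lay down elastin at the tips of new septa, capillary endothelium grows along them, and epithelium thins into gas-exchanging type 1 cells. High oxygen damages DNA, proteins and lipids in these cells and leaves a lung with fewer and larger alveoli, which is the rodent model of bronchopulmonary dysplasia in preterm infants. The classic responses to such damage are the p53 pathway, which arrests damaged cells, and the NRF2 pathway, which supplies glutathione and other antioxidants.

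The tissue carried the transcripts of lung in every SK array. Sftpc, the surfactant protein of alveolar type 2 cells, was at 13.15, 13.40 and 13.40 in SK RA and 13.22, 13.09 and 13.30 in SK HO, all on a log2 scale, as are the levels below. A log2 fold change is the SK HO mean minus the SK RA mean on that scale, and a rise or fall is given in the same unit. Ager, which marks type 1 cells, was at 11.18, 11.71 and 11.49 in SK RA and 11.94, 11.89 and 12.06 in SK HO, and Pecam1, which marks endothelium, was at 10.03, 10.03 and 10.05 in SK RA and 9.47, 9.21 and 9.54 in SK HO. The fall of Pecam1 (log2 fold change -0.63, adjusted p = 0.0346 by limma) was lost on leaving out any 1 array other than those of WT HO 1 and WT HO 2 (adjusted p = 0.0503 to 0.124). Sphk1 itself was at 5.59, 5.78 and 5.84 in SK RA and 5.70, 6.28 and 5.57 in SK HO, against 5.37, 4.90 and 5.40 in WT RA and 6.79, 7.50 and 7.04 in WT HO. The SK groups overlapped (log2 fold change 0.11, standard error 0.23, adjusted p = 0.897 by limma), and all SK RA lungs lay above all WT RA lungs. Where the probes of the transcript lie relative to the deleted part was not stated in the sources, and the genotype therefore rests on the labels alone. SK RA 1 and SK HO 1 stood apart from the other 10 arrays, with medians of 4.99 and 4.89 against 4.76 to 4.85, and with median correlations to the arrays of their group of 0.963 and 0.964 against 0.969 to 0.981. Y-linked genes were high and Xist was low in 1 of 3 SK RA and 2 of 3 SK HO lungs, although the methods name male pups. Markers of fat cells were high in SK RA 1, with a list score (mean log2 value relative to the 12 arrays) of 1.28 against -0.50 and -0.40 in the other SK RA lungs and -0.61 to -0.40 in SK HO.

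Hyperoxia changed 794 named genes in the knockout lung (3.58%), of which 349 rose and 445 fell. These were 1.57% and 2.01% of the 22180 genes tested (limma, 1 mean per group over the 12 arrays, Benjamini-Hochberg adjusted p under 0.05 over all transcripts). The counts of list members that rose or fell below are to be read beside these shares. Over all transcripts, 967 passed (2.34%), 422 up (1.02%) and 545 down (1.32%), and 488 of them changed by at least 2-fold (1.18%). Before adjustment 14% of all transcripts passed 0.05. In each of the 967 called transcripts the 3 SK HO arrays lay on one side of the 3 SK RA arrays, which was also so in 17.1% of all transcripts. Among the called genes, SK HO 2 was the highest array in 233 of 349 that rose and the lowest in 280 of 445 that fell. The SK arrays varied more within groups than the WT arrays (median standard deviation 0.24 against 0.20), and a fit to the 6 SK arrays alone called 93 transcripts (0.225%), 91 of which were among the 967, and 80 named genes (0.361%). Whichever of the 12 arrays was left out, 288 genes kept their call, 119 up and 169 down, and these are called firm below.

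The largest rise was that of Saa3, an acute-phase serum amyloid A protein. Saa3 was at 4.36, 4.29 and 4.61 in SK RA and 8.50, 10.58 and 9.10 in SK HO. Even the lowest hyperoxic lung stood far above the highest of the room air lungs, and SK HO 2 was highest. The difference was 4.97 on the log2 scale (standard error 0.46), or 31.4-fold (adjusted p = 0.000403). Eda2r, a receptor of the TNF receptor superfamily, followed with 3.91, 4.04 and 4.21 in SK RA and 7.54, 7.39 and 7.59 in SK HO, a rise of 3.45 (standard error 0.18, adjusted p = 2.29e-05). Its 3 hyperoxic lungs lay close to each other. Ano3, of the anoctamin family of membrane proteins, was at 3.79, 3.84 and 3.78 in SK RA and 6.85, 6.26 and 7.06 in SK HO, a rise of 2.92 (standard error 0.18), and Inhba, the beta-A subunit of activin, was at 4.20, 4.73 and 4.53 in SK RA and 7.09, 7.36 and 7.30 in SK HO, a rise of 2.77 (standard error 0.21). Each of these 4 genes passed also in the fit to the 6 SK arrays alone (adjusted p = 0.00262 to 0.0276).

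Other leading genes that rose came from several families. Spink5, an inhibitor of serine proteases, rose by 2.32, and Cd109, a co-receptor that binds TGF-beta, by 1.998. Hapln1, which links hyaluronan to proteoglycans, was at 5.03, 6.18 and 5.90 in SK RA and 8.43, 7.47 and 8.52 in SK HO and rose by 2.43. Unlike in most rising genes, SK HO 2 was here the lowest of the hyperoxic lungs. Ahnak2, a large scaffold protein, rose by 2.44, Shisa6, an auxiliary protein of glutamate receptors in neurons, by 2.22, and Nrg1 (neuregulin 1), a ligand of ErbB receptors, by 1.88. The call of Nrg1 was lost without SK RA 3 (adjusted p = 0.055).

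**Figure D1:**
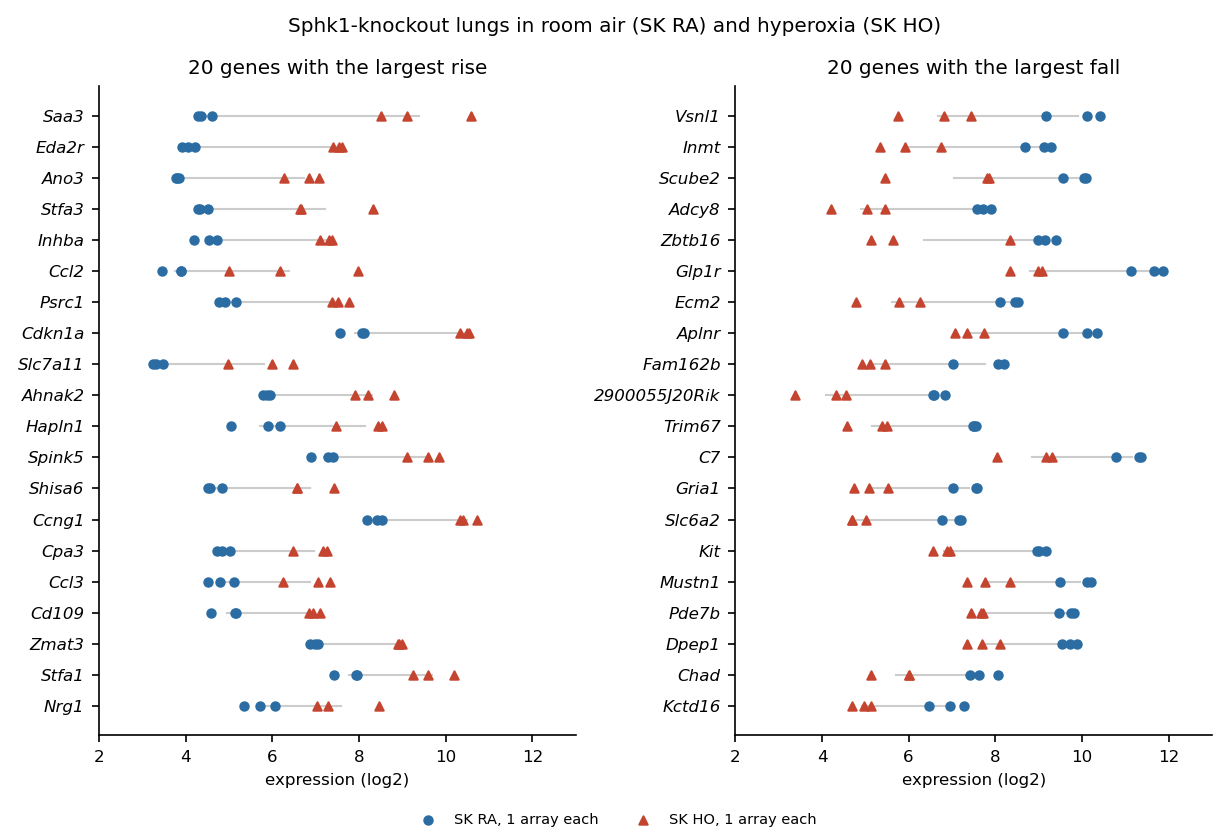
Expression (log2, horizontal axis) of the 20 genes that rose most and the 20 that fell most in SK HO against SK RA, among called genes whose arrays do not overlap. Each point is 1 array, circles SK RA and triangles SK HO, and grey lines join the group means. In every gene the circles and triangles stand apart, by 4.97 between the means of Saa3 and by -3.23 between those of Vsnl1.

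The largest fall was that of Vsnl1, a calcium sensor first described in neurons, which was at 9.17, 10.11 and 10.41 in SK RA and 6.81, 5.74 and 7.45 in SK HO. The groups did not overlap, and the fall was 3.23 on the log2 scale (log2 fold change -3.23, standard error 0.50, adjusted p = 0.00768). Inmt, a methyltransferase of indoleamines that is abundant in lung fibroblasts, was at 8.69, 9.13 and 9.29 in SK RA and 5.92, 6.74 and 5.34 in SK HO, a log2 fold change of -3.03 (standard error 0.33). A receptor and enzymes that act on cyclic AMP followed. Glp1r, the receptor of glucagon-like peptide 1, was at 11.14, 11.66 and 11.86 in SK RA and 8.99, 8.34 and 9.07 in SK HO, a log2 fold change of -2.75 (standard error 0.27). Adcy8, an adenylyl cyclase stimulated by calcium, was at 7.57, 7.72 and 7.91 in SK RA and 5.03, 4.21 and 5.46 in SK HO, a log2 fold change of -2.83 (standard error 0.28). In both genes SK HO 2 was lowest and no hyperoxic lung came within 2 log2 units of any room air lung. Pde7b, a phosphodiesterase that breaks down cyclic AMP, fell too, with a log2 fold change of -2.07. Of the 15 measured adenylyl cyclases and receptors of the glucagon family, 3 fell and none rose (2.01% of all genes fell), with a median log2 fold change of -0.26 against 0.00079 for all genes.

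Several of the leading genes that fell are best known from nerve cells. Gria1, a subunit of AMPA glutamate receptors, was at 7.03, 7.55 and 7.58 in SK RA and 5.09, 4.74 and 5.51 in SK HO, a log2 fold change of -2.27 (standard error 0.21, adjusted p = 0.000403). Slc6a2, the noradrenaline transporter, which lung endothelium also carries, was at 6.77, 7.20 and 7.16 in SK RA and 4.69, 5.01 and 4.70 in SK HO, a log2 fold change of -2.24 (standard error 0.17). Trim67, a ubiquitin ligase of the TRIM family, fell by 2.37 and Kctd16, an auxiliary subunit of GABA receptors, fell by 1.97. None of the 4 measured markers of Schwann cells and neurons passed by limma, by the ordinary variance or before adjustment at 0.05 (median -0.18). Of 15 ionotropic glutamate receptor subunits, 2 fell, Gria1 and Grik4, and none rose. Grik4 had a log2 fold change of -0.92 and lost its call without SK HO 1, SK HO 2, SK RA 1, SK RA 2 or SK RA 3 (adjusted p = 0.064 to 0.0962). Others encode matrix and secreted proteins. Ecm2 (extracellular matrix protein 2) fell by 2.75 and Chad (chondroadherin) fell by 1.98, and C7, a component of the complement membrane attack complex, fell by 2.31. Scube2, a secreted protein that helps to release hedgehog ligands, had a log2 fold change of -2.86 and did not pass without SK RA 2 or SK RA 3 (adjusted p = 0.0634 to 0.0711).

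Target genes of p53 rose in the knockout. Of 28 listed target genes, 25 were measured, of which 13 rose and 1 fell (1.57% of all genes rose), with a median log2 fold change of 0.94 against 0.00079 for all genes. Cdkn1a, the inhibitor p21 that stops the cell cycle in G1, was at 8.12, 8.06 and 7.55 in SK RA and 10.48, 10.54 and 10.33 in SK HO. The hyperoxic lungs lay close to each other, and the rise was 2.54 (standard error 0.19), or 5.82-fold (adjusted p = 0.000136). Zmat3, an RNA-binding protein that acts downstream of p53, was at 6.98, 7.06 and 6.87 in SK RA and 8.92, 8.89 and 8.98 in SK HO. Both groups were narrow, and it rose by 1.96 (standard error 0.12). Psrc1, a protein of microtubules that p53 induces, was at 4.77, 4.91 and 5.16 in SK RA and 7.38, 7.78 and 7.52 in SK HO and rose by 2.61 (standard error 0.15). Ccng1 (cyclin G1) rose by 2.11 and Polk, a DNA polymerase that copies past lesions, by 1.53. Mdm2, the ubiquitin ligase that limits p53, rose by 1.07, Phlda3, which restrains Akt, by 1.02, and Ddit4l, an inhibitor of mTORC1, by 1.11. The exception was Sesn1, a sestrin, whose log2 fold change was -1.003 and whose call was lost without SK HO 1, SK HO 2, SK HO 3, SK RA 2 or SK RA 3 (adjusted p = 0.062 to 0.108). Tnfrsf10b, a death receptor of TRAIL, rose by 1.22 but not without SK HO 2 or SK RA 3 (adjusted p = 0.0561 to 0.0642). Of the 13 genes that rose, 9 were firm and 6 passed with the 6 SK arrays alone. In wild type 21 of the 25 rose, with a median of 1.52. By the test of the difference, the knockout response was higher in 1 gene of the list and lower in 3. The rise of Psrc1 was larger in the knockout by 1.43 (standard error 0.21, adjusted p of the difference = 0.00238), while for Cdkn1a the difference was -0.46 (standard error 0.27, adjusted p = 0.442).

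The promoter of Cdkn1a is shown because it is the one among the p53 targets in which a pair of p53 half-sites lay within the 250 bases before a RefSeq start. A gene counted if the window before any of its listed starts held a match. For a promoter printed here or below, the start is the first listed one that did, and it may not be the gene's only start. A pair here is 2 matches to the p53 consensus half-site of 10 bases, on either strand, with 0 to 13 bases between them. Promoters from RefSeq (GRCm38.p6) were matched by symbol for 16990 of the 22180 genes, and 8 of these genes (0.0471%) held such a pair, as did 1 of 259 genes called up. The capitals mark the half-sites, at 73 to 64 and 51 to 42 bases before the start so chosen, on the plus strand of chr17:29090729-29090978. The letters TGACNNNGC, of the antioxidant response element, were searched for too and stood in 12.3% of the promoters, in 5 of 19 promoters of NRF2 targets and antioxidant enzymes and in 1 of the 5 of these that were called up. None of the matches shown here and below overlapped a match to another motif.
Cdkn1a: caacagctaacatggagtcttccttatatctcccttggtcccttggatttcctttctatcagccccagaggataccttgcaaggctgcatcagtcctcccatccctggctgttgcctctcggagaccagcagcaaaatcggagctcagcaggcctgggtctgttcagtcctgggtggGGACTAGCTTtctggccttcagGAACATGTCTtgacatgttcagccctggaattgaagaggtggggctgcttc

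Antioxidant genes rose less evenly. Of 25 measured NRF2 targets and antioxidant enzymes, 8 rose and 1 fell, with a median of 0.59. The number that rose was 3 to 5 without SK HO 2, SK HO 3, SK RA 1, SK RA 2, SK RA 3, WT HO 1, WT HO 2, WT HO 3 or WT RA 2. Slc7a11, which imports cystine for glutathione, was at 3.46, 3.25 and 3.30 in SK RA and 4.98, 6.47 and 5.98 in SK HO. SK HO 1 was the lowest of the hyperoxic lungs and SK HO 2 the highest, and the rise was 2.47 (standard error 0.34, adjusted p = 0.00335). Me1 (malic enzyme 1), which supplies NADPH, was at 7.57, 7.78 and 8.003 in SK RA and 8.79, 8.71 and 8.75 in SK HO and rose by 0.97 (standard error 0.15). These were the firm ones of the list, and neither passed with the 6 SK arrays alone (adjusted p = 0.0649 and 0.0861). Txnrd1 (thioredoxin reductase 1) rose by 0.97 but not without SK RA 3 (adjusted p = 0.0613), and Sod2, the mitochondrial superoxide dismutase, rose by 0.73 but not without SK RA 2 (adjusted p = 0.0503). Hmox1 (heme oxygenase 1) rose by 1.53 but not without SK HO 2 or SK RA 2 (adjusted p = 0.0503 to 0.0697). The gene that fell was Sod3, the extracellular superoxide dismutase, with a log2 fold change of -1.26, which did not pass without any 1 of the arrays except SK RA 1 or SK HO 1 (adjusted p = 0.065 to 0.171) or with the replicate number as a block (adjusted p = 0.062). Wild-type lungs raised 21 of the 25, and the knockout response was lower than the wild-type response in 6 genes and higher in none by the test of the difference. Of all genes 6.98% passed that test, 3.39% with a higher and 3.6% with a lower response in the knockout, and of all transcripts 4.79%.

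Genes of the integrated stress response, which adapts amino acid supply and translation, rose in small numbers. Of 18 measured, 4 rose and none fell, with a median of 0.50, whereas 14 rose in wild type with a median of 1.77. The difference between the responses passed for 11 genes, each lower in the knockout. Ddit3 (CHOP), a transcription factor of the response, was at 6.11, 6.40 and 6.53 in SK RA and 6.90, 7.30 and 7.38 in SK HO and rose by 0.85, with a difference from the wild-type response of -0.92 (adjusted p of the difference = 0.0385). Asns (asparagine synthetase) was at 5.97, 6.50 and 5.91 in SK RA and 6.67, 7.41 and 7.005 in SK HO and rose by 0.90. Psat1, of serine synthesis, rose by 1.11. The other gene was Nupr1, a stress-induced nuclear protein, which rose by 0.66. None of the 4 calls was firm, and their number was 1 to 2 without SK HO 2, SK HO 3, SK RA 1, SK RA 2, SK RA 3, WT HO 3, WT RA 1, WT RA 2 or WT RA 3. Ddit3 did not pass without SK HO 2, SK HO 3 or SK RA 2 (adjusted p = 0.0571 to 0.07), Asns without any 1 of the arrays except SK RA 2 or SK HO 1 (adjusted p = 0.0632 to 0.154), Psat1 without SK RA 1, SK RA 2 or SK RA 3 (adjusted p = 0.0519 to 0.0647) and Nupr1 without any 1 of the arrays except WT HO 1, WT HO 2 or SK HO 1 (adjusted p = 0.0709 to 0.167), nor did Nupr1 pass with the replicate number as a block (adjusted p = 0.0679).

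The promoters of Slc7a11 and Asns are shown because both held the letters TGATGNAA, which the amino acid response element contains. On either strand these letters stood within 250 bases before the start of 578 of 16990 genes (3.4%), of 7 of 259 genes called up (2.7%) and of 6 of 15 genes of the integrated stress response. The capitals mark them, at 66 to 59 and 47 to 40 bases before the start of Slc7a11 (minus strand of chr3:50443614-50443863) and at 23 to 16 bases before that of Asns (minus strand of chr6:7693210-7693459).
Slc7a11: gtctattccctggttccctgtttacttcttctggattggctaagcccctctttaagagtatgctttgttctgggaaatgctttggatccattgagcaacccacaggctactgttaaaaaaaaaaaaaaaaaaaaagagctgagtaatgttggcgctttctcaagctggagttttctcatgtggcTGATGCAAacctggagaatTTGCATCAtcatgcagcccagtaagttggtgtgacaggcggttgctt
Asns: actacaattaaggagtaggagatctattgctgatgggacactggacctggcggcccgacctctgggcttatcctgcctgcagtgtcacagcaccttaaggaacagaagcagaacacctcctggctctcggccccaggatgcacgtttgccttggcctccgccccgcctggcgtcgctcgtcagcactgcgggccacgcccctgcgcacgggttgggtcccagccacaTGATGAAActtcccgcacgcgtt

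Some chemokines and acute-phase genes rose. Of 26 measured chemokines, 8 rose and 1 fell (1.57% and 2.01% of all genes did), with a median of 0.84. The number that rose was 3 without SK RA 3, 4 without SK RA 2 and 5 without SK HO 2, and 3 were firm. Ccl3, which draws monocytes and neutrophils, was at 4.51, 5.11 and 4.798 in SK RA and 6.24, 7.05 and 7.33 in SK HO and rose by 2.07 (standard error 0.32). Ccl9 was at 6.86, 7.23 and 7.24 in SK RA and 8.56, 9.85 and 8.46 in SK HO, with SK HO 2 highest, and rose by 1.84 (standard error 0.30). Ccl11 (eotaxin), which draws eosinophils, was at 5.72, 5.60 and 5.79 in SK RA and 7.16, 7.89 and 6.83 in SK HO and rose by 1.59 (standard error 0.22). It is the firm chemokine whose response differed from that of wild type, by 1.66 (adjusted p of the difference = 0.0118), where its log2 fold change was -0.07. In wild type 15 of the 26 chemokines rose and 1 fell, with a median of 1.06. By the test of the difference, the knockout response was higher in 1 chemokine and lower in 4. Ccl2, the chief attractant of monocytes, was at 3.45, 3.89 and 3.90 in SK RA and 4.99, 7.97 and 6.16 in SK HO. Its hyperoxic lungs spread over almost 3 log2 units, and the rise of 2.63 (standard error 0.54, adjusted p = 0.0305) did not pass without SK HO 3, SK RA 1, SK RA 2, SK RA 3, WT HO 3 or WT RA 2 (adjusted p = 0.0506 to 0.0893). Cxcl14, a chemokine of epithelium and fibroblasts, was the one that fell, with a log2 fold change of -1.60, against a rise of 2.88 in wild type, and it did not pass without SK RA 2 or SK RA 3 (adjusted p = 0.0582 to 0.0656). None of the chemokines passed with the 6 SK arrays alone.

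Beside Saa3, Lcn2 (lipocalin 2), which binds the iron carriers of bacteria, was at 8.44, 8.22 and 8.37 in SK RA and 9.51, 9.68 and 9.68 in SK HO. Its groups were tight, and it rose by 1.27 (standard error 0.13, adjusted p = 0.000871). Lbp, which presents lipopolysaccharide to its receptor, went the other way, at 8.12, 8.47 and 8.56 in SK RA and 7.14, 7.17 and 7.28 in SK HO, a log2 fold change of -1.18 (standard error 0.14). Icam1, the endothelial and epithelial ligand of leukocyte integrins, was at 8.50, 9.09 and 8.91 in SK RA and 10.08, 10.83 and 10.26 in SK HO and rose by 1.55 (standard error 0.20), and the wild-type rise was 1.55. Ptgs2 (cyclooxygenase 2) was at 5.81, 6.52 and 6.68 in SK RA and 7.51, 8.76 and 8.33 in SK HO and rose by 1.86 (standard error 0.30), with a difference from the wild-type response of -2.27 (adjusted p of the difference = 0.0111). Ptgis, the prostacyclin synthase, fell by 0.89, and Hpgd, which breaks down prostaglandins, fell by 1.41. Of the family of interleukin 6, Lif rose by 1.13 and the receptor Osmr by 1.002, neither of them firm, since Lif did not pass without SK HO 3, SK RA 2 or SK RA 3 (adjusted p = 0.0534 to 0.0627) and Osmr without SK HO 2, SK RA 1, SK RA 2 or SK RA 3 (adjusted p = 0.0554 to 0.0844). Il6 itself was at 2.63, 3.33 and 2.88 in SK RA and 3.56, 5.22 and 4.21 in SK HO (log2 fold change 1.38, adjusted p = 0.0961) and passed without SK HO 1 (adjusted p = 0.0339). Serpina3n, a serine protease inhibitor of the acute phase, was at 8.01, 7.83 and 7.27 in SK RA and 9.21, 11.16 and 8.12 in SK HO. SK HO 2 stood almost 2 log2 units above the next hyperoxic lung, and the log2 fold change of 1.79 did not pass (standard error 0.58, adjusted p = 0.157) but did without SK HO 3 (adjusted p = 0.0317).

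The promoters of Cxcl1 and Icam1 are shown because both genes rose and both held the letters GGAANTTCC, a form of the NF-kB binding site. Either strand of 170 of 16990 promoters (1%) and of 4 of 259 promoters of genes called up (1.54%) held them. The capitals mark them, at 70 to 62 bases before the start of Cxcl1 (plus strand of chr5:90890995-90891244) and at 153 to 145 bases before that of Icam1 (plus strand of chr9:21015690-21015939). Cxcl1, which draws neutrophils, was at 4.90, 5.01 and 4.96 in SK RA and 5.59, 6.08 and 6.44 in SK HO and rose by 1.08, with a call lost without SK HO 2, SK RA 2 or SK RA 3 (adjusted p = 0.0502 to 0.0563).
Cxcl1: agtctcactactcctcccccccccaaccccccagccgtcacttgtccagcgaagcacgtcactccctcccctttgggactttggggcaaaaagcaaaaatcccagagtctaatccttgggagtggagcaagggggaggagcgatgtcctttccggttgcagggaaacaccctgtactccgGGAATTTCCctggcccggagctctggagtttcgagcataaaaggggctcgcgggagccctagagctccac
Icam1: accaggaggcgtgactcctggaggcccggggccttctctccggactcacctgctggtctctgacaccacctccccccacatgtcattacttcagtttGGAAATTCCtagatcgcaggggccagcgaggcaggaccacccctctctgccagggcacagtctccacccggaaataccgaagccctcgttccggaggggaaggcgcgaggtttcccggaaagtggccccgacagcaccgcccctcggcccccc

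Immediate early genes, the first to be transcribed after a stimulus, rose in 5 of 14 cases and fell in none (median 0.82). The number that rose was 1 to 3 without SK HO 2, SK HO 3, SK RA 1, SK RA 2, SK RA 3, WT HO 1 or WT RA 1, and 2 with the ordinary variance. Fos was at 6.69, 6.49 and 6.84 in SK RA and 7.68, 8.16 and 8.03 in SK HO and rose by 1.28 (standard error 0.17), which was firm, with a difference from the wild-type response of -1.61 (adjusted p of the difference = 0.00276). Junb rose by 1.15 but not without SK HO 2 or SK HO 3 (adjusted p = 0.0525 to 0.054). Ccn1, a matricellular protein that stretch and serum induce, was at 9.73, 10.38 and 10.06 in SK RA and 10.96, 11.93 and 11.54 in SK HO and rose by 1.42, and Thbs1 (thrombospondin 1) by 1.21.

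Genes of general capillary endothelium, one of the cell types of the alveolar capillary, fell. Of the 10 markers, 7 fell and none rose (2.01% of all genes fell), with a median of -1.06. The list score ran from 0.49 to 0.81 in SK RA and from -0.56 to -0.39 in SK HO. In whole lung, fewer cells of a type and less RNA per cell cannot be told apart. Aplnr, the apelin receptor, was at 9.57, 10.12 and 10.34 in SK RA and 7.34, 7.06 and 7.74 in SK HO, a log2 fold change of -2.63 (standard error 0.28, adjusted p = 0.00084). Kit, the receptor of stem cell factor, was at 8.96, 9.01 and 9.18 in SK RA and 6.57, 6.89 and 6.96 in SK HO, a log2 fold change of -2.24 (standard error 0.14). Gpihbp1, which anchors lipoprotein lipase to capillaries, was at 8.93, 9.33 and 9.23 in SK RA and 7.33, 7.36 and 7.20 in SK HO, a log2 fold change of -1.86 (standard error 0.15). All hyperoxic lungs lay below all room air lungs by more than 1 log2 unit in these 3 genes. Tek, the receptor of angiopoietins, fell by 1.55, Sema3c (semaphorin 3C) fell by 1.11 and Ptprb, an endothelial tyrosine phosphatase, fell by 1.01. Cd36, a fatty acid transporter, fell by 0.76 and lost its call without SK RA 3 (adjusted p = 0.0509). Of the 7, 6 were firm and 4 passed with the 6 SK arrays alone. Gpihbp1 fell more than in wild type, with a difference of -1.56 (adjusted p of the difference = 0.00135), and Aplnr fell less, with a difference of 1.72 (adjusted p = 0.0276).

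Aerocytes are the other endothelial cells of the alveolar capillary. Of their 8 markers, 1 rose and 3 fell, with a median of -0.18. No fall was firm, and the score ran from 0.04 to 0.51 in SK RA and from -0.31 to 0.31 in SK HO, so that the groups overlapped. Ligands of the receptors above did not move as one. Apln (apelin), which aerocytes make, was at 8.31, 9.04 and 8.94 in SK RA and 10.01, 9.91 and 10.05 in SK HO and rose by 1.23 (standard error 0.20), whereas its receptor fell. Angpt1, the activating ligand of Tek, was at 8.82, 9.28 and 9.26 in SK RA and 7.92, 7.39 and 7.95 in SK HO, a log2 fold change of -1.36 (standard error 0.19), and Angpt2, the context-dependent antagonist, had a log2 fold change of 1.25 and did not pass without any 1 of the arrays except SK RA 3 (adjusted p = 0.0535 to 0.183). General markers of endothelium fell in 3 of 13 cases (median -0.29, and 1 case without any 1 of the arrays except SK RA 1, WT HO 1 or WT HO 2), and Cldn5, a tight junction protein, was at 9.81, 10.25 and 10.25 in SK RA and 9.79, 9.98 and 10.16 in SK HO (log2 fold change -0.13, adjusted p = 0.829). Sox17 and Gja4 (connexin 37), which mark arteries, had log2 fold changes of -0.89 and -0.91. The fall of Sox17 was firm, and Gja4 did not pass without SK RA 2 (adjusted p = 0.0503).

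Vascular tone genes fell in 10 of 17 measured cases and rose in none (2.01% of all genes fell), with a median of -0.98. The number that fell was 4 without SK RA 3, 5 without SK RA 2 and 6 without SK HO 1. Npr3, the clearance receptor of natriuretic peptides, was at 9.995, 10.23 and 10.07 in SK RA and 8.52, 8.39 and 8.73 in SK HO, a log2 fold change of -1.55 (standard error 0.16). Calcrl, the receptor subunit for adrenomedullin and CGRP, was at 11.07, 11.25 and 11.41 in SK RA and 10.12, 9.48 and 10.16 in SK HO, a log2 fold change of -1.32 (standard error 0.19). Pde3a, a phosphodiesterase of vascular smooth muscle, fell by 1.14, and Ace, the angiotensin-converting enzyme of lung endothelium, was at 11.49, 11.75 and 11.83 in SK RA and 10.96, 10.98 and 10.89 in SK HO, a log2 fold change of -0.75 (standard error 0.12). These 4 were the firm ones, and of them Npr3 alone passed with the 6 SK arrays. Ace fell in the knockout and had 0.10 in wild type, a difference of -0.85 (adjusted p of the difference = 0.0164). Nos3, the endothelial nitric oxide synthase, was at 7.48, 7.64 and 7.45 in SK RA and 6.66, 6.94 and 6.68 in SK HO, a log2 fold change of -0.76, and rose in wild type by 0.84 (adjusted p of the difference = 0.000947). The fall did not pass without SK HO 1, SK HO 3, SK RA 2 or SK RA 3 (adjusted p = 0.0541 to 0.0835). Gucy1b1, a subunit of the receptor of nitric oxide, had a log2 fold change of -1.15 and did not pass without SK RA 3 (adjusted p = 0.0553).

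**Figure D2:**
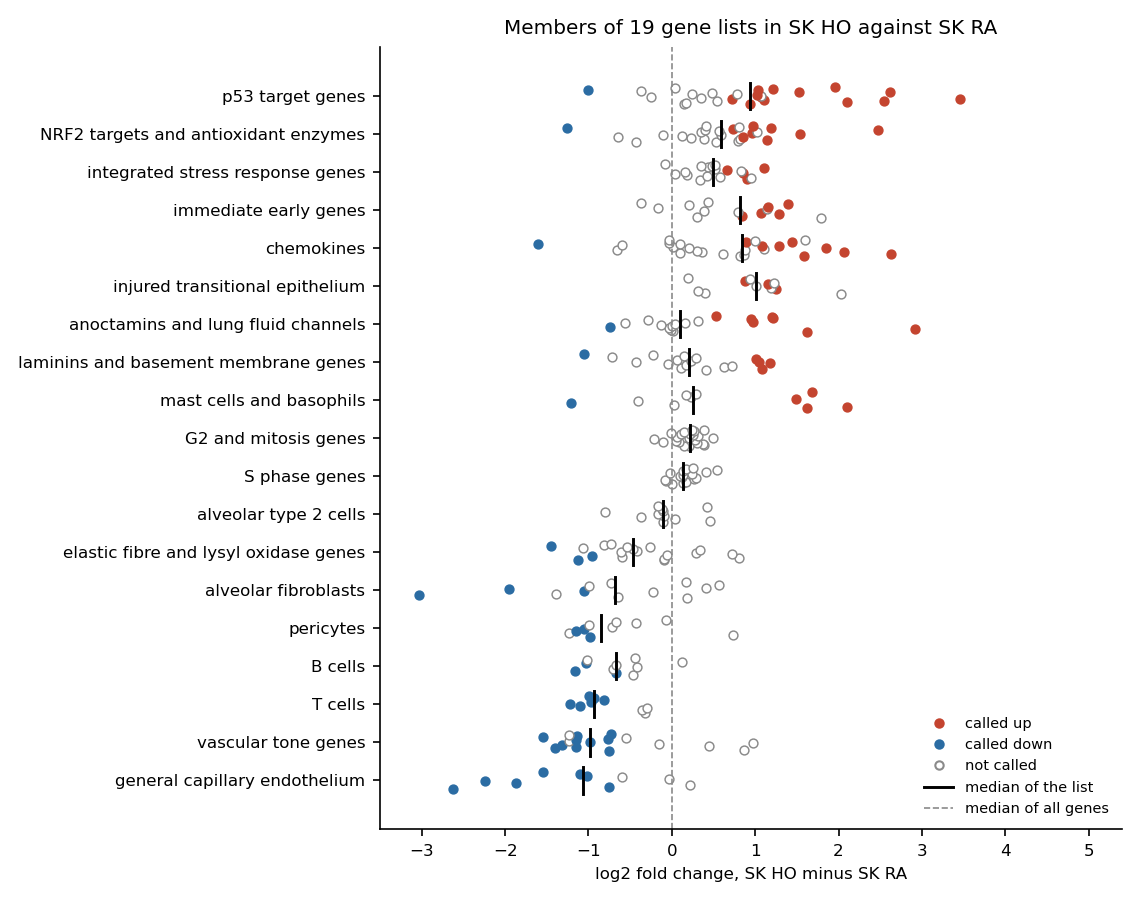
Log2 fold change in SK HO against SK RA (horizontal axis) of every measured member of 19 gene lists (vertical axis). Filled points passed the test, open points did not, black bars are list medians, and the dashed line is the median of the 22180 genes. The p53 targets lie to the right, with 13 up and 1 down, and the general capillary markers to the left, with 7 down and none up, while no member of the S phase or the G2 and mitosis list is filled.

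Some genes of fibroblasts and of elastic fibres fell. Of the 12 markers of alveolar fibroblasts, 3 fell and none rose (median -0.68). Pdgfra, the receptor that marks the precursors of septal myofibroblasts, was at 10.35, 10.48 and 10.58 in SK RA and 7.83, 9.44 and 8.28 in SK HO. SK HO 2 kept the highest level of the hyperoxic lungs, and the log2 fold change was -1.95 (standard error 0.32, adjusted p = 0.00892), against 1.51 in wild type (adjusted p of the difference = 0.00106). Npnt (nephronectin) of the basement membrane had a log2 fold change of -1.06 and did not pass without SK RA 2 or SK RA 3 (adjusted p = 0.0531 to 0.0552). Eln, which encodes elastin, was at 12.64, 12.86 and 12.84 in SK RA and 11.70, 11.40 and 11.86 in SK HO. All hyperoxic lungs stood below all room air lungs, and the log2 fold change of -1.12 (standard error 0.14, adjusted p = 0.00243) equals a fall to 1 part in 2.18. The microfibril protein Mfap2 had a log2 fold change of -1.45, and wild type had -2.18 for Mfap2 and -1.08 for Eln, neither difference past the test (adjusted p = 0.287 and 0.946). Of 19 elastic fibre and lysyl oxidase genes, 3 fell and none rose, and Lox (lysyl oxidase) itself differed by 0.29 (log2, adjusted p = 0.641). Among markers of pericytes 3 of 10 fell (1 without SK RA 3), of which Cox4i2, a subunit of cytochrome oxidase, was firm with a log2 fold change of -0.99. The pericyte score of SK HO 2 was -0.68 against -0.15 and 0.10 in SK HO 1 and 3.

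Other matrix genes rose. Col12a1, a collagen of fibril surfaces, was at 7.51, 7.59 and 7.39 in SK RA and 8.66, 9.34 and 8.70 in SK HO and rose by 1.40 (standard error 0.21), whereas wild type had -0.75 (adjusted p of the difference = 0.00168). Ecm1, a secreted glycoprotein, rose by 1.03. Mmp10 (stromelysin 2) was at 4.67, 4.85 and 4.49 in SK RA and 6.23, 6.46 and 6.33 in SK HO, a rise of 1.67 (standard error 0.20), and wild type had -0.0077 (adjusted p of the difference = 0.00668). Adamts15, which cleaves versican and aggrecan, fell by 1.41 and rose in wild type by 1.40 (adjusted p of the difference = 0.000101). Of 21 listed collagen genes 2 rose and 1 fell, while in wild type 2 rose and 15 fell. By the test of the difference, the knockout response was higher in 11 of them and lower in 1. The listed one that fell was Col3a1, a main fibrillar collagen, with a log2 fold change of -0.64, which did not pass without SK HO 1, SK HO 2, SK RA 2 or SK RA 3 (adjusted p = 0.0555 to 0.0939). Col24a1, a collagen that is not in the list, fell too (log2 fold change -0.64, adjusted p = 0.0333 by limma). It was picked from the called genes, and whether its call is firm is not given.

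Part of the laminins rose. Of 18 laminins and other basement membrane genes, 4 rose and 1 fell, while in wild type none rose and 14 fell. Lama3 and Lamb3, the alpha and beta chains of the laminin that anchors epithelium, were at 8.91, 8.79 and 8.43 in SK RA and 9.999, 9.53 and 10.13 in SK HO (Lama3) and 7.36, 7.84 and 7.56 in SK RA and 8.66, 8.62 and 8.49 in SK HO (Lamb3). They rose by 1.18 and 1.005 (standard errors 0.19 and 0.15), more than in wild type by 2.56 and 1.17 (adjusted p of the difference = 0.000222 and 0.00986). Fras1, which joins epithelium to mesenchyme in the embryo, rose by 1.08 against a wild-type response of -3.53, with a call lost without SK HO 1, SK HO 3, SK RA 1, SK RA 2, SK RA 3 or WT RA 2 (adjusted p = 0.0501 to 0.101). Without SK RA 3 the number that rose was 2, and none of the list passed with the 6 SK arrays alone.

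Several channels of the airway and alveolar surface rose. Of 18 anoctamins and fluid channels, 7 rose and 1 fell, and their median log2 fold change was 0.10. The number that rose was 4 without SK RA 1 or SK RA 3. Ano1, the calcium-activated chloride channel of epithelium and smooth muscle, was at 8.31, 8.78 and 8.57 in SK RA and 10.19, 10.04 and 10.29 in SK HO. It rose by 1.62 (standard error 0.14, adjusted p = 0.000255), as Ano3 did, and neither passed in wild type (log2 fold changes of -0.06 for Ano1 and -0.03 for Ano3, adjusted p of the difference = 0.000534 and 9.32e-05). The epithelial sodium channel, which clears fluid from the airspace, rose in its beta and gamma subunits. Scnn1b was at 7.35, 8.02 and 7.78 in SK RA and 8.74, 9.13 and 8.91 in SK HO and rose by 1.21 (standard error 0.18), and Scnn1g was at 9.27, 9.80 and 9.21 in SK RA and 10.52, 10.88 and 10.47 in SK HO and rose by 1.20 (standard error 0.17). The alpha subunit, Scnn1a, rose by 0.96 but not without any 1 of the arrays except SK HO 3 (adjusted p = 0.0549 to 0.123). Aqp5, the water channel of type 1 cells, rose by 0.98 but not without SK HO 2, SK RA 1 or SK RA 3 (adjusted p = 0.0585 to 0.0817). The 4 firm genes were Ano1, Ano3, Scnn1b and Scnn1g, of which the anoctamins passed with the 6 SK arrays alone.

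Alveolar epithelium changed in part. No marker of type 2 cells was called of 11 measured (limma, and none by the ordinary variance, with 1 higher and 2 lower at 0.05 before adjustment), with a median of -0.11. Before adjustment 14% of all transcripts passed. Of 12 type 1 markers 3 rose (1 without SK HO 2 or SK RA 3), of which Akap5, an anchor of protein kinase A, was firm with a rise of 1.12, and it fell in wild type (log2 fold change -0.86, adjusted p of the difference = 0.000417). Genes of injured transitional epithelium rose in 3 of 11 cases, with a median of 1.01. Itgb6, the integrin beta chain that activates latent TGF-beta, was at 5.89, 5.97 and 5.70 in SK RA and 6.98, 7.24 and 7.10 in SK HO and rose by 1.25 (standard error 0.14), and Krt7 (keratin 7) was at 7.23, 7.80 and 7.63 in SK RA and 8.61, 9.05 and 8.48 in SK HO and rose by 1.16. Krt8 (keratin 8) was at 7.99, 8.21 and 7.93 in SK RA and 8.65, 10.25 and 8.89 in SK HO. The value of SK HO 2 stood more than 1 log2 unit above the others, and Krt8 did not pass (log2 fold change 1.22, standard error 0.32, adjusted p = 0.0818) but did without SK HO 1 (adjusted p = 0.0348).

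Growth factor genes moved in both directions. Of 12 measured IGF genes 3 rose and 3 fell, where 1.57% and 2.01% of all genes did. Among these, 2 of the rises and 1 of the falls were firm. In wild type 2 of the IGF genes rose and 6 fell. By the test of the difference, the knockout response was higher in 5 of them and lower in 1. Igf2r, which clears IGF2 and sorts lysosomal enzymes, was at 8.40, 8.36 and 8.44 in SK RA and 9.65, 9.50 and 9.78 in SK HO and rose by 1.24 (standard error 0.12, adjusted p = 0.000434), against a log2 fold change of -0.86 in wild type (adjusted p of the difference = 4.67e-05). Igf2bp3, an RNA-binding protein of fetal tissue, rose by 1.30 against -2.38 in wild type, and Igfbp5, a binding protein of IGFs, fell by 1.37. The BMP ligand Bmp2 was at 8.02, 8.35 and 7.95 in SK RA and 6.36, 7.01 and 7.002 in SK HO, a log2 fold change of -1.31 (standard error 0.20), and that of Bmp6 was -1.27, not past the test without SK RA 2 or SK RA 3 (adjusted p = 0.0574 to 0.0618). Wnt7a rose by 1.03 and the Wnt receptor Fzd6 fell by 0.83, among 2 Wnt genes up and 2 down of 31. The called share of the Wnt list was 12.9%, against 3.58% of all genes. Semaphorins, which guide axons and vessels, also moved both ways, with Sema3a at 6.50, 6.75 and 6.63 in SK RA and 7.99, 7.73 and 7.87 in SK HO (rise 1.23, standard error 0.12) and Sema3g, which arteries express, at 8.52, 8.95 and 8.94 in SK RA and 7.15, 7.06 and 7.21 in SK HO (log2 fold change -1.66, standard error 0.13). Sema3e rose by 1.35. Ccnd1 (cyclin D1), which growth factors induce, was at 8.69, 9.05 and 9.13 in SK RA and 10.14, 10.16 and 10.24 in SK HO and rose by 1.22 (standard error 0.14).

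Of 12 measured genes that respond to glucocorticoids, 1 rose and 4 fell, against 10 up and 1 down in wild type. None of these calls in the knockout was firm, and log2 fold changes were positive in 5 and negative in 7 of the 12. The number that fell was 0 to 2 without SK HO 1, SK HO 3, SK RA 2, SK RA 3, WT HO 1, WT HO 2, WT HO 3, WT RA 1, WT RA 2 or WT RA 3, and 1 with the ordinary variance or with the average Y-linked signal as covariate, and none fell with SK RA 1 and SK HO 1 left out together or with each array centred on its median. Zbtb16 (PLZF), a transcription factor, was at 9.41, 9.16 and 8.99 in SK RA and 5.12, 8.33 and 5.63 in SK HO. SK HO 2 stood less than 1 log2 unit below the lowest room air lung and the other hyperoxic lungs more than 3 below it, and the log2 fold change of -2.83 (standard error 0.65, adjusted p = 0.0477) did not pass without any 1 of the arrays except SK HO 2 (adjusted p = 0.0635 to 0.131). In wild type Zbtb16 rose by 2.87 (adjusted p of the difference = 0.00452). Hsd11b1, which activates glucocorticoids within cells, fell by 0.80 and rose in wild type by 1.23 (adjusted p of the difference = 0.000332), with a call in the knockout lost without SK HO 1, SK HO 3, SK RA 2 or SK RA 3 (adjusted p = 0.0594 to 0.0954). Hlf, a transcription factor with daily rhythm, was the circadian gene called of 15, at 6.66, 6.91 and 6.72 in SK RA and 5.29, 4.83 and 5.46 in SK HO, a log2 fold change of -1.57 (standard error 0.20).

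T cell genes fell, and granule proteases of mast cells rose. Of 9 T cell genes 6 fell and none rose (median -0.93), where 2.01% of all genes fell. The T cell score was 0.30 to 0.52 in SK RA and -0.49 to -0.26 in SK HO. Cd3e, of the T cell receptor complex, was at 7.15, 7.26 and 7.06 in SK RA and 5.66, 6.24 and 6.28 in SK HO, a log2 fold change of -1.10 (standard error 0.18, adjusted p = 0.0107), and lost its call without SK RA 2 (adjusted p = 0.0503). Its response differed from that of wild type by -1.25 (adjusted p of the difference = 0.0186). B cell genes fell in 3 of 10 cases, among them Cd79a of the B cell receptor, at 6.71, 7.17 and 7.13 in SK RA and 5.82, 5.64 and 6.07 in SK HO (log2 fold change -1.16, standard error 0.19), which did not pass without SK RA 2 or SK RA 3 (adjusted p = 0.0503 to 0.052). No T or B cell call was firm, and without SK RA 2 the T cell count was 1 and the B cell count 0. None of 5 markers of thymus, which can be carried along with lung, was called by limma or by the ordinary variance, and 1 was lower at 0.05 before adjustment.

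Cpa3, a carboxypeptidase of mast cell granules, was at 4.71, 5.02 and 4.84 in SK RA and 7.25, 6.48 and 7.16 in SK HO. The lowest hyperoxic lung was above the highest room air lung by more than 1 log2 unit, and the rise was 2.10 (standard error 0.22, adjusted p = 0.000893). The granule proteases Tpsb2 (tryptase), Cma1 and Mcpt4 (chymases) rose by 1.68, 1.62 and 1.48, with Mcpt4 at 3.42, 3.49 and 2.82 in SK RA and 4.55, 4.41 and 5.23 in SK HO. Cpa3 and Tpsb2 passed also with the 6 SK arrays alone (adjusted p = 0.0314 and 0.0329). All 4 fell in wild type, with differences between the responses of 2.46 (Cma1) to 4.47 (Cpa3), each past the test. Gata2, a transcription factor of mast cells and also of endothelium, fell, at 9.52, 9.90 and 9.77 in SK RA and 8.60, 8.41 and 8.57 in SK HO (log2 fold change -1.20, standard error 0.13), and the other 5 of the 10 mast cell and basophil genes were not called.

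Stefins and neutrophil genes rose in part. Stfa3, of the stefin A family of cysteine protease inhibitors found in neutrophils, was at 4.29, 4.50 and 4.33 in SK RA and 6.64, 8.32 and 6.67 in SK HO and rose by 2.83 (standard error 0.44), and Stfa1 was at 7.93, 7.95 and 7.41 in SK RA and 9.60, 10.19 and 9.24 in SK HO and rose by 1.91 (standard error 0.31). The genes of this cluster are near-identical, and their signals may not be separate. Camp and Ngp, granule proteins of neutrophils, rose by 0.73 and 1.36, with calls lost without any 1 of the arrays except WT RA 1, WT RA 2 or SK RA 2 (adjusted p = 0.0501 to 0.124) for Camp and without any 1 of the arrays except SK RA 2 (adjusted p = 0.0556 to 0.162) for Ngp, and were the genes called of 12. Called genes were 16.7% of the neutrophil list, against 3.58% of all genes. The neutrophil score was 0.22, 1.01 and 0.22 in SK HO 1, 2 and 3. Among alveolar macrophage genes Marco, a scavenger receptor, was at 5.97, 6.19 and 6.33 in SK RA and 7.51, 7.96 and 7.21 in SK HO and rose by 1.39 (standard error 0.19), and Siglecf, a sialic acid receptor, fell by 0.91 but not without SK HO 2, SK HO 3, SK RA 2 or SK RA 3 (adjusted p = 0.0777 to 0.103). Chil3, a chitinase-like protein of macrophages, was at 8.04, 8.79 and 8.68 in SK RA and 5.83, 9.15 and 5.29 in SK HO. SK HO 2 was higher than every room air lung and the other hyperoxic lungs were lower than all of them, and the log2 fold change of -1.75 did not pass (standard error 0.74, adjusted p = 0.312) but did without SK HO 2 (adjusted p = 0.000519).

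None of the listed genes of S phase or of mitosis passed the test in the knockout. Some genes of mitosis that are not in these lists did rise, among them Psrc1, a spindle protein (above). Gtse1, Ckap2 and Bora rose by 1.77, 0.94 and 0.57 (adjusted p = 0.000255, 0.00306 and 0.0295 by limma). Their log2 fold changes in wild type were 0.58, -1.75 and -1.46. Gtse1, Ckap2 and Bora were picked from the called genes, so uncalled mitosis genes outside the lists could not appear here. Whether these calls are firm is not given. Of 17 S phase genes and 22 genes of G2 and mitosis none was called in SK HO against SK RA by limma or by the ordinary variance, and before adjustment, at 0.05, there were 2 up of the first and 2 up of the second list and none down. Of all genes only 3.58% were called, and 14% of all transcripts passed 0.05 before adjustment. Log2 fold changes ranged from -0.21 to 0.49 for the second list (median 0.21). Mki67, which marks cycling cells, was at 8.31, 8.04 and 8.15 in SK RA and 8.54, 8.33 and 8.38 in SK HO (log2 fold change 0.25, standard error 0.13, adjusted p = 0.418), against 9.91, 9.91 and 9.82 in WT RA and 5.74, 5.93 and 6.02 in WT HO. Both SK groups thus lay between the wild-type groups. Top2a, the topoisomerase of dividing cells, was at 7.02, 6.61 and 7.13 in SK RA and 7.18, 7.21 and 7.18 in SK HO (log2 fold change 0.27, standard error 0.16). In wild type, by contrast, 16 and 22 of the lists fell, and the difference between the responses was positive and past the test for 15 of the 17 and all 22 of the 22.

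Sphingolipid genes, the pathway in which the knockout acts, were mostly uncalled, as were most genes. Of 38 listed and measured, none rose and 2 fell, with a median of 0.01. The called share was 5.26%, against 3.58% of all genes. Galc, which breaks down galactosylceramide, and Sptssb, a subunit of serine palmitoyltransferase, are not in this list. They rose by 0.99 and 0.63 (adjusted p = 0.00919 and 0.0156 by limma). Their log2 fold changes in wild type were -0.08 and 0.15. The difference passed for Galc (adjusted p of the difference = 0.0208) and not for Sptssb (0.139). Both were picked from the called genes, and whether their calls are firm is not given. Acer2, the alkaline ceramidase that makes sphingosine in the Golgi, was at 9.28, 9.30 and 9.25 in SK RA and 7.36, 7.61 and 7.61 in SK HO. Its groups were narrow and far apart, with a log2 fold change of -1.75 (standard error 0.11, adjusted p = 5.06e-05), and wild type had -1.36. Plpp3, a phosphatase that inactivates sphingosine-1-phosphate and lysophosphatidic acid outside cells, was at 10.33, 10.85 and 10.80 in SK RA and 9.70, 9.66 and 9.82 in SK HO, a log2 fold change of -0.93 (standard error 0.16), and did not pass without SK RA 2 or SK RA 3 (adjusted p = 0.0542 to 0.0565). Sphk2, the second sphingosine kinase, was at 7.04, 7.32 and 7.36 in SK RA and 7.07, 7.40 and 7.37 in SK HO (log2 fold change 0.04, adjusted p = 0.945). The receptors S1pr1, S1pr2 and S1pr3 differed by 0.03, 0.54 and 0.30 (log2, standard errors 0.16, 0.15 and 0.14), and the lyase Sgpl1 had 0.27 (standard error 0.17), none past the test (adjusted p = 0.102 or more).

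**Figure D3:**
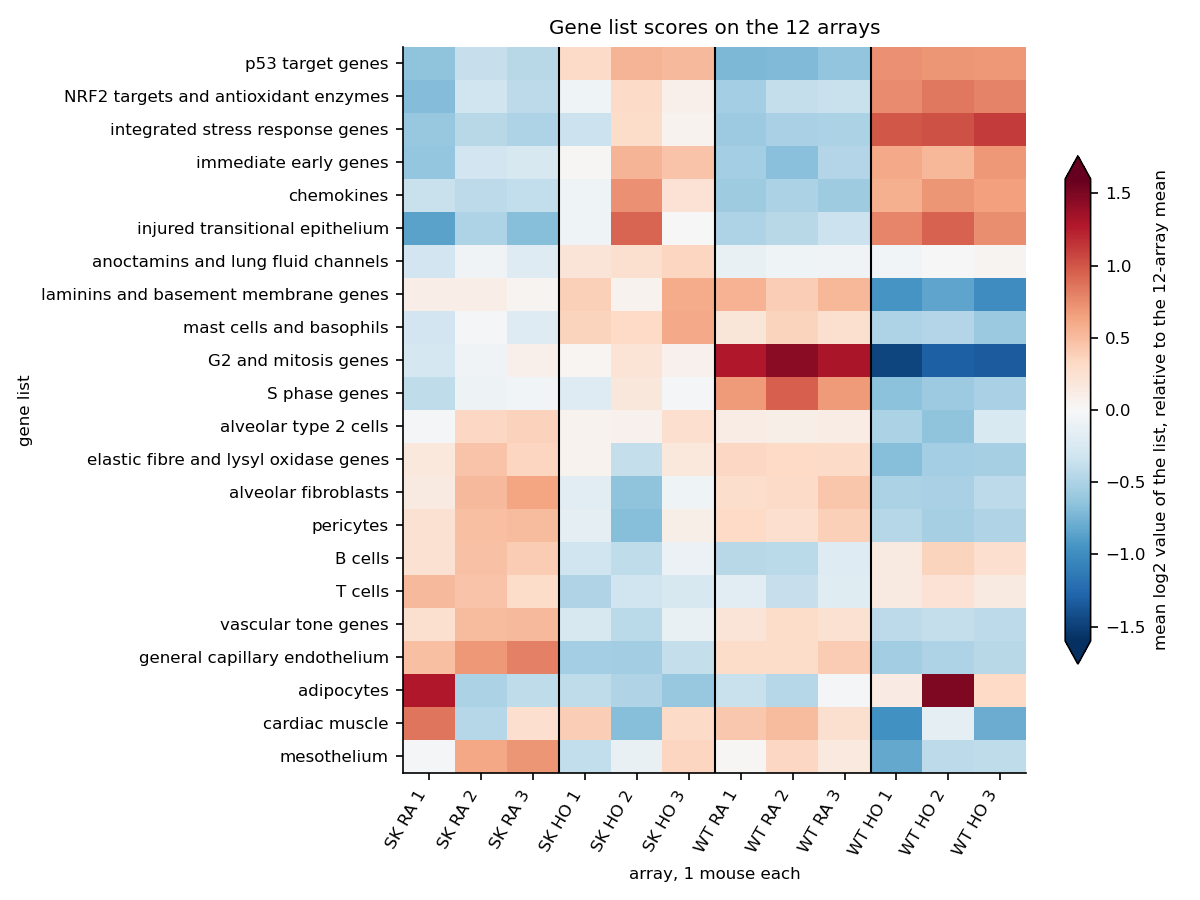
Scores of the 19 gene lists and of 3 lists of tissues that can be carried along with lung, on the 12 arrays (columns, 1 mouse each), as the mean log2 value of the list relative to the 12 arrays. Red is above and blue is below the mean of the 12 arrays, and black lines part the groups. The general capillary score is above 0 in all SK RA arrays and below 0 in all SK HO arrays, and the adipocyte score is 1.28 in SK RA 1.

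Several other lists held no called gene, by limma and by the ordinary variance. Their counts before adjustment stand beside 14% of all transcripts, up and down together. These were 10 chaperones of the endoplasmic reticulum, which fold secreted proteins, with 1 gene higher and 1 lower at 0.05 before adjustment, and 8 genes of hedgehog signalling, with 1 higher and 0 lower. Of 13 genes of sterol and fatty acid synthesis, 5 were higher before adjustment and 0 lower (median log2 fold change 0.11). Of 9 markers of adventitial fibroblasts, which sheathe large vessels and airways, 0 were higher before adjustment and 6 lower (median -0.39). Monocyte and interstitial macrophage genes had 3 higher and 1 lower of 12, natural killer cell genes 1 and 0 of 9, and neuroendocrine genes 0 and 0 of 8.

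Set beside the wild-type response, the knockout response shared many genes and reversed others. Of the 349 genes that rose in SK HO, 210 rose also in WT HO, 32 fell there and 107 were not called. Of the 445 that fell, 217 fell also in WT HO, 56 rose there and 172 were not called. For reference, 12.1% and 9.46% of all genes rose and fell in wild type. Both sets of calls use 1 estimate of spread and are thus linked. The test of the difference itself passed for 104 of the genes that rose and 149 of those that fell, where 6.98% of all genes passed it. Among genes not called in wild type it passed for 45 of 107 that rose and 74 of 172 that fell, so most of these calls in the knockout alone were not shown to differ from wild type. In each of the genes called in opposite directions the difference passed. Choosing genes by opposite calls in the same fit makes this likely, so it is no separate evidence.

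**Figure D4:**
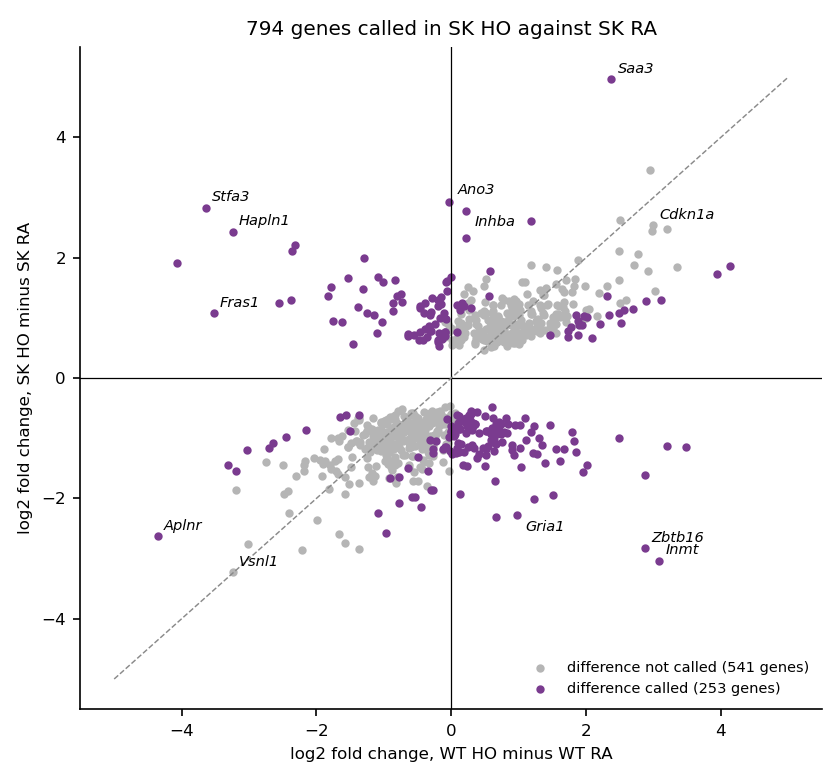
Log2 fold change with hyperoxia in the knockout (vertical axis) against that in wild type (horizontal axis) for the 794 genes called in the knockout, 1 point per gene. Purple points passed the test of the difference between the responses (253 genes), grey points did not (541 genes), and the dashed line marks equal responses. Saa3 lies above the line, at 4.97 against 2.38, and Inmt and Zbtb16 lie lower right, where the knockout fell and wild type rose.

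Genes called in opposite directions with the largest differences were named by a rule that uses the difference, so these values are a description. Inmt fell in the knockout and rose in wild type, where it was at 6.27, 6.18 and 6.82 in WT RA and 9.35, 9.29 and 9.88 in WT HO. Egln3, an oxygen-dependent prolyl hydroxylase that marks hypoxia-inducible factors for decay, was at 5.001, 5.71 and 5.66 in SK RA and 6.73, 6.64 and 6.73 in SK HO, a rise of 1.24, and had a log2 fold change of -2.55 in wild type. Nrk, a kinase of the embryo and placenta, rose by 1.52 against -1.78 in wild type. Il7r, the receptor of interleukin 7 on lymphocytes, had a log2 fold change of -0.996 against 2.49 in wild type, and did not pass in the knockout without any 1 of the arrays except WT HO 2, WT HO 3 or SK HO 2 (adjusted p = 0.0518 to 0.112). Slc10a6, a carrier of steroid sulfates, had a log2 fold change of -1.44 against 2.02, with a call in the knockout lost without SK HO 1, SK HO 3, SK RA 2 or SK RA 3 (adjusted p = 0.0626 to 0.09). The fat cell gene Cidec had a log2 fold change of -1.56 against 1.96, with a call in the knockout lost when any 1 array of the 3 other groups was left out (adjusted p = 0.0537 to 0.131), and the score of fat cell markers was 1.28 in SK RA 1 and 1.49 in WT HO 2 against -0.61 to 0.32 in the other 10 lungs. The part of fat cells in that result was not tested.

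**Figure D5:**
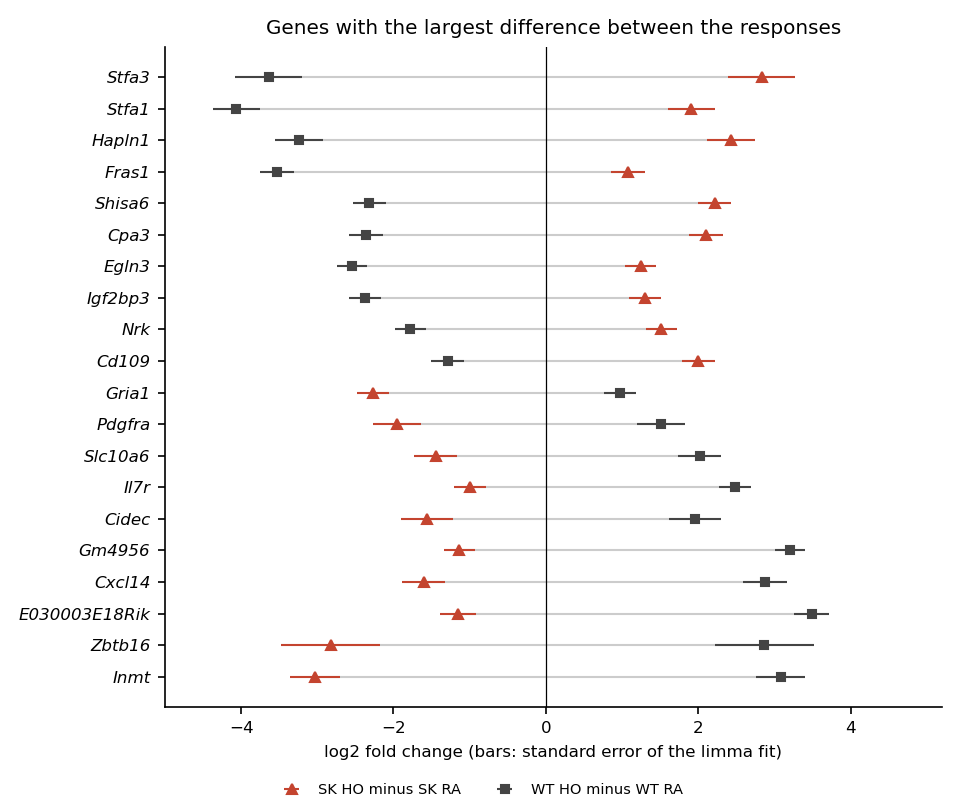
Log2 fold change with hyperoxia (horizontal axis) in the knockout (triangles) and in wild type (squares) for the 10 genes with the largest positive and the 10 with the largest negative difference between the responses, among genes called in the knockout. Bars are standard errors of the limma fit. The symbols lie on opposite sides of 0 in each gene, with Stfa3 at 2.83 in the knockout and -3.64 in wild type.

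Of cells and tissues that can be carried along with lung, few genes were called. By limma and by the ordinary variance, none was called among 10 genes of cardiac muscle, 9 of skeletal muscle, 6 of erythroid cells, 8 of cartilage and 5 of liver, and at 0.05 before adjustment 1 gene of cardiac muscle was lower and no other. Upk1b was the mesothelial gene called, at 9.996, 10.18 and 10.10 in SK RA and 8.58, 7.79 and 8.93 in SK HO (log2 fold change -1.66, standard error 0.23), and Ppbp, a chemokine of platelets, rose by 1.21 but not without any 1 of the arrays except WT RA 2 or SK HO 1 (adjusted p = 0.0529 to 0.16). Uty, of the Y chromosome, was at 6.93, 3.000 and 2.81 in SK RA and 6.82, 6.57 and 2.85 in SK HO, and its log2 fold change of 1.17 (standard error 1.30, adjusted p = 0.789) goes with the lungs that had high Y-linked genes. When the average Y-linked signal entered as covariate, 524 of the 794 calls were kept.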

How the data were processed

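RNA of 12 lungs was hybridised to Affymetrix Mouse Gene 2.0 ST arrays, 1 mouse per array. The authors background-corrected, quantile-normalized and summarized the probes by RMA in Partek Genomics Suite and deposited log2 expression values for 41345 transcripts, which were used as given. Quantile normalization evens out the arrays' distributions, so shifts shared by most genes may not show in full. The medians of the deposited values still ran from 4.76 to 4.99. A platform table named 1 gene for 23521 transcripts, several for 1820 and none for 16004, and a gene with several transcripts (1082 of 22180) was represented by the one with the highest mean.

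limma 3.58.1 (R 4.3.3) was fitted with 1 mean per group over the 12 arrays, as the study's methods use genotype, oxygen and their interaction, with moderated variance in place of ordinary variance. Contrasts were SK HO minus SK RA and that minus WT HO minus WT RA, with Benjamini-Hochberg adjusted p-values over all transcripts, called under 0.05. The script was tested on simulated data. Lists of 1063 genes in 75 groups (942 measured, in 74 of them) were described by counts and medians. The members and lists were chosen with earlier results of these data known.

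Genes were named by a rule: the 20 largest rises and 20 largest falls among called genes without overlap, the 41 genes the study lists for this comparison or measured by RT-PCR (5 have no transcript of that symbol), called members of each list with up to 3 others of smallest p, Sphk1, and the 10 largest differences from wild type in each direction. Not all of these are printed, and Ager, Cldn5, Mki67, Sftpc, Sphk2 and Top2a were added outside it as standard markers after values were seen. Galc, Sptssb, Gtse1, Ckap2, Bora and Col24a1 were added from the called genes outside the lists. They are not in the counts of named genes or in what is said of named genes under the alternatives. Replicates of one number deviated together between SK RA and SK HO (correlations 0.40, 0.19 and 0.21 over transcripts, each highest with its own number), so the number in the titles was tried as a block. Other alternatives were each array left out, SK RA 1 and SK HO 1 left out together, the 6 SK arrays alone, ordinary variance, a trend with a robust prior, median centring, a further quantile normalization, low transcripts left out, the mean over a gene's transcripts and the mean of 3 Y-linked genes as a covariate. A list score is the mean over members of the log2 value minus the member's mean over 12 arrays.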

Additional observations from a re-analysis of the deposited data

Results flagged for a closer look

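For 75 of the 156 genes named here the hyperoxia response of the knockout differed from that of wild type by the test of the difference (limma, adjusted p under 0.05, which 6.98% of all genes passed). Each value below is the knockout response minus the wild-type response on the log2 scale, and genes among them that were named because of this difference are descriptions only.

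The difference was positive, the knockout response lying above that of wild type, for genes of myeloid and mast cells and inflammation. It was 6.47 for Stfa3, 5.97 for Stfa1, 3.19 for Ngp, 1.37 for Camp and 4.47 for Cpa3. It was also 2.76 for Tpsb2, 2.46 for Cma1, 2.79 for Mcpt4, 2.59 for Saa3 and 1.66 for Ccl11.
Among matrix, adhesion and growth factor genes it was 5.68 for Hapln1, 4.61 for Fras1, 3.68 for Igf2bp3, 2.10 for Igf2r and 2.55 for Inhba. It was also 2.15 for Col12a1, 1.01 for Col3a1, 2.56 for Lama3, 1.17 for Lamb3 and 1.68 for Mmp10. It was also 1.09 for Itgb6, 3.29 for Cd109, 2.11 for Spink5, 1.39 for Sema3a and 1.50 for Sema3e.
Among genes of dividing cells, epithelium, endothelium and others it was 4.24 for Mki67, 3.63 for Top2a, 1.43 for Psrc1, 4.53 for Shisa6 and 2.95 for Ano3. It was also 1.68 for Ano1, 1.01 for Scnn1g, 1.97 for Akap5, 3.79 for Egln3 and 3.29 for Nrk. It was also 1.72 for Aplnr and 0.62 for Sox17.

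The difference was negative for fibroblast, matrix and vascular genes. It was -6.11 for Inmt, -3.46 for Pdgfra, -2.97 for C7, -1.44 for Chad and -2.80 for Adamts15. It was also -1.56 for Gpihbp1, -1.10 for Cd36, -0.85 for Ace, -1.60 for Nos3 and -0.76 for Sema3g. It was also -1.16 for Slc6a2, -2.08 for Ptgis, -1.19 for Gata2 and -0.97 for Plpp3.
Among genes of immune cells, inflammation and stress it was -6.41 for Chil3, -1.33 for Siglecf, -4.48 for Cxcl14, -4.44 for Serpina3n and -3.48 for Il7r. It was also -2.17 for Cd79a, -1.25 for Cd3e, -2.27 for Ptgs2, -0.91 for Lbp and -1.61 for Fos. It was also -0.92 for Ddit3, -1.31 for Asns, -2.52 for Sod3 and -1.43 for Nupr1.
Among hormone-responsive, fat cell, neuronal and sphingolipid genes it was -5.69 for Zbtb16, -2.04 for Hsd11b1, -3.46 for Slc10a6, -3.52 for Cidec and -3.25 for Gria1. It was also -1.39 for Kctd16, -1.30 for Pde7b, -1.77 for Sphk1, -0.82 for Sphk2 and -1.16 for S1pr1.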

How the results depend on the processing

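No called gene named here changed sign under an alternative. Among the uncalled ones the log2 fold change turned negative for Sphk1 (-0.10 without SK HO 2), Sphk2 (-0.0061 to -0.06 without SK HO 2, SK HO 3 or SK RA 1), S1pr1 (-0.04 to -0.11 in 4 alternatives) and Uty (-0.18 with the Y-linked covariate). The 95 named genes called firm kept their call in all alternatives except the fit to the 6 SK arrays, where 39 of them did. That fit called 93 transcripts, 41 up and 52 down, all 93 by at least 2-fold, against 967, 422, 545 and 488 with 12 arrays. It has fewer samples to estimate the spread, and the SK arrays varied more within groups than the WT arrays (median standard deviation 0.24 against 0.20). The part of either in the lower count was not tested. Of the 138 called genes named here, 40 passed in the fit to the 6 SK arrays. Centring each array on its median gave 643 transcripts, 303 up and 340 down, and leaving out low transcripts gave 1445, 648 up and 797 down. A further quantile normalization gave 1132, the ordinary residual variance 740, a trend with a robust prior 1251, the Y-linked covariate 672, and leaving out SK RA 1 and SK HO 1 together 816. The cause of these changes was not tested. Where transcripts or samples were left out, fewer were tested or fitted. Of the 138 calls, centring kept 123, the Y-linked covariate 119, the ordinary variance 116 and leaving out both replicates 1 kept 119. Of the uncalled named genes Ager gained a call with the trend and robust prior, Il6 and Krt8 without SK HO 1, Chil3 without SK HO 2 and Serpina3n without SK HO 3.

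Leaving out 1 of the 12 arrays gave 433 (without SK RA 3) to 933 (without SK HO 1) called transcripts, 198 (without SK RA 3) to 534 (without SK HO 1) up, 233 (without SK RA 2) to 644 (without SK RA 1) down and 314 (without SK RA 3) to 547 (without SK HO 1) by at least 2-fold. Fewer than 967 by over 1.5 times were also called without SK RA 2 (461) and SK HO 2 (556), and without SK HO 3 the count up was 249. The difference between the responses passed in 1349 (without WT RA 2) to 2365 (without SK HO 2) transcripts against 1979. With the replicate number as a block, 1172 transcripts were called, 525 up and 647 down, and of the named genes Sod3 and Nupr1 lost their call, while the block changed no other call among them.

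The arrays give 3 mice a group, which limits the precision of every value. No detection call was used, and levels near background are not told apart from it. Calls outlasted the loss of any single array in 36.3% of the 794 called genes. Genes that were not called are not shown to be unchanged.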
